A study of Mus musculus with 6 samples.

Results

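The 49 genes described here build or control the contractile and actin cytoskeleton of smooth muscle: actins, proteins bound to the thin filament, myosin subunits, intermediate filament proteins, crosslinkers, adhesion plaque proteins, calcium-handling proteins and transcriptional regulators. Members were taken by gene symbol from the annotation of the array, under the older or newer name where a gene has both (Mkl1 or Mrtfa, Rflna or Fam101a). Of the 49 genes, 45 had at least 1 probe, 104 probes in all of the 45281 on the array. Actg1, Cnn3, Tes and Tgfb1i1 were not matched to a probe and are not analysed here. Only probes with a detection p-value (a rank against negative controls) below 0.05 on 3 or more of the 6 arrays entered the test. This left 61 probes for 37 of the genes, out of 9051 genes with a kept probe.

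The series measured RNA of smooth muscle cells cultured from the aorta of C57Bl/6 mice, to study the role of FHL2 there. Cells came from wild-type mice or from FHL2-knockout mice, and the sources used here do not state the type of the deleted allele. For each genotype 3 batches were grown, each pooled from 3 aortas, so that 9 mice stand behind each group, and every batch was kept without serum for 48 h after it reached confluency and read on 1 array. All values below are normalized probe intensities on the log2 scale, given in the order of replicates 1, 2 and 3, and a change is knockout minus wild-type.

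In vascular smooth muscle, force arises when myosin motors pull on actin filaments that are anchored in dense bodies in the cytoplasm and in adhesion plaques at the membrane. Phosphorylation of the myosin light chain by myosin light chain kinase starts contraction, and tropomyosin, caldesmon and calponin regulate the thin filament. Many of these genes are driven by serum response factor (SRF) with its coactivators myocardin and the MRTFs, and cultured smooth muscle cells tend to lose part of this programme while they keep or gain non-muscle cytoskeletal proteins. FHL2, a protein made of LIM domains, is known to bind SRF and integrins.

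Between 14844 and 16115 probes were detected per array, and the number of arrays limits the precision. Fhl2 itself was lower on all 3 knockout arrays, with a limma adjusted p of 9.66e-07 for its brighter probe. Marker genes of other cells differed between the genotypes too. The summed intensity of 10 endothelial markers was 1732 to 2273 on the wild-type and 290 to 322 on the knockout arrays, with 6 of 7 tested markers lower (Emcn, Egfl7, Esam, Icam2, Pecam1 and Cdh5, each detected on 0 knockout arrays). That of 7 epithelial and mesothelial markers was 221 to 241 on the wild-type and 2711 to 2914 on the knockout arrays, with 4 of 4 tested markers higher, of which Upk1b and Msln were detected on 0 wild-type arrays. That of 7 adventitial fibroblast markers was 6129 to 6682 on the wild-type and 1351 to 1445 on the knockout arrays, with 1 higher and 5 lower of 7 tested, and that of 5 macrophage markers was 470 to 560 on the wild-type and 235 to 300 on the knockout arrays, with 1 higher and 1 lower of 3 tested. Over all genes tested, 14.8% were higher and 16.5% lower. The 6 endothelial markers, Upk1b, Msln and the fibroblast marker Clec3b passed the detection filter through 1 genotype alone. Their calls were thus partly set by the filter. The 4 kept probes of Xist, a transcript of female cells, were detected throughout the wild-type group and on 0 knockout arrays. The part of these differences in the results below was not tested.

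The labelled cell type was checked against defining smooth muscle markers, and they were only in part present. Acta2, the vascular smooth muscle alpha-actin, was bright on all 6 arrays, and Tagln (transgelin) and Smtn (smoothelin) were detected on all 6 by their brightest probes. Tagln was much dimmer, with a wild-type mean of 7.04 against 14.61 for Acta2, and its second probe was detected on 0 arrays. Probes of 1 gene also differ in brightness, with wild-type means of 10.69 to 14.61 over the kept probes of Acta2. The dimmer signal of Tagln is thus no measure of its abundance relative to Acta2. Of the 4 probes of Smtn, 2 passed the detection filter. The single probe of Cnn1, smooth muscle calponin, was detected on 0 arrays, with values of 4.65, 4.49 and 4.48 on the wild-type arrays and 4.65, 4.64 and 4.76 on the knockout arrays. Myh11, the smooth muscle myosin heavy chain, was detected on 1 wild-type and 2 knockout arrays by its better probe. Of the 5 probes of Myocd, the gene of myocardin, 4 were detected on 0 arrays and 1 on a single knockout array. Both genotypes thus lacked detectable signal for some of the genes that define the contractile state, at the sensitivity of these probes.

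By the brightest kept probe of each gene, 20 of the 37 tested members were higher in knockout cells, 4 were lower and 13 did not pass, at an adjusted p under 0.05 over all 15527 kept probes. Over all 9051 genes tested the same rule called 14.8% higher and 16.5% lower. Counted by probe, 34 of the 61 kept member probes were called, 29 higher and 5 lower, where 29.6% of all kept probes were called, 14.4% higher and 15.2% lower. The median change of the 37 members was 0.45, against -0.01 for all genes. Among the 33 members whose probe was detected on every array, and so in both genotypes, 18 were higher and 3 lower, where all such genes gave 15.2% and 16%. The 3 knockout arrays lay above the 3 wild-type arrays for 25 of the 37 members and below them for 5, against 23.1% and 24.7% of all genes. A rise of at least 2-fold was called for 6 members and a fall of that size for 2, beside 4.7% and 5.88% of all genes. Leaving out any single knockout array lowered the number of higher members to 13. The share of all genes called higher fell as well, to 12.0%, 10.8% and 11.4% without knockout replicates 1, 2 and 3. In bulk RNA, fewer cells of a type and less RNA per cell cannot be told apart.

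**Figure D1:**
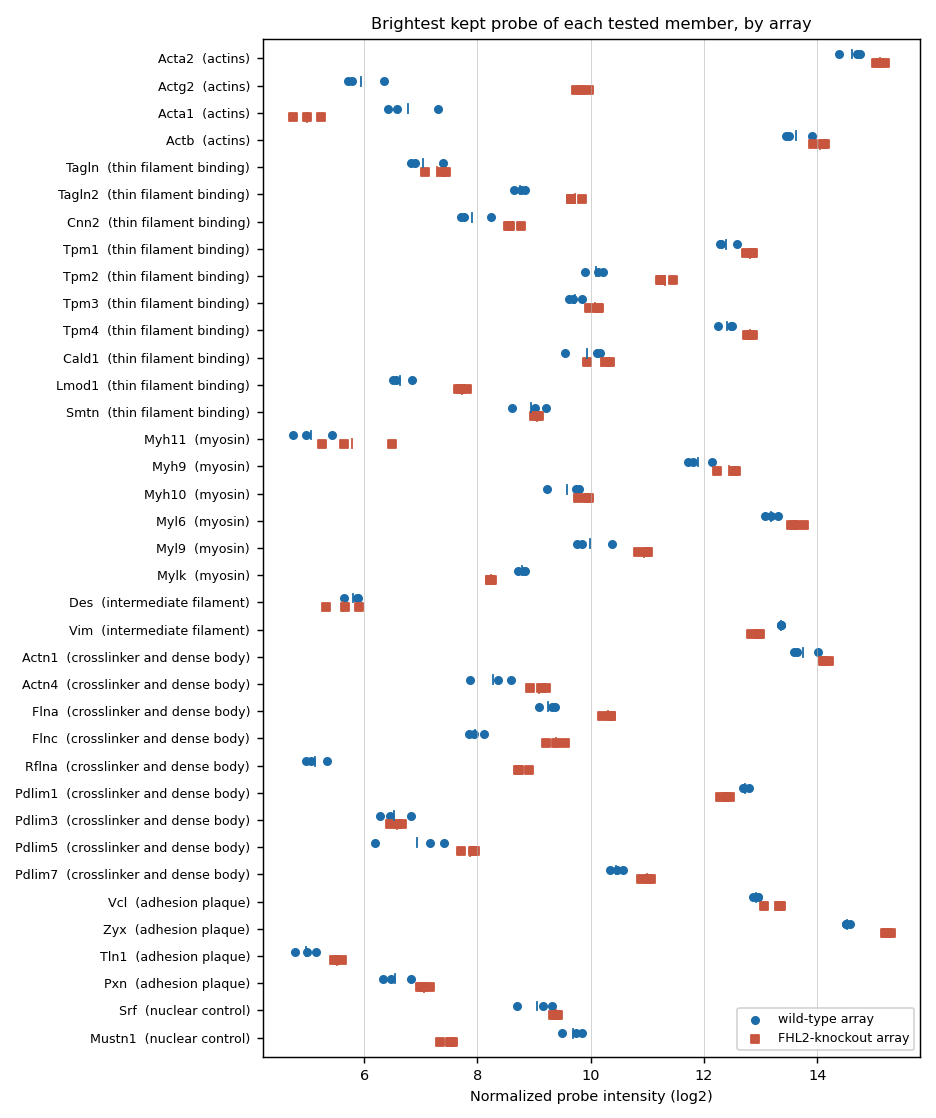
Normalized log2 intensity (horizontal axis) of the brightest kept probe of the 37 tested members, with each wild-type array as a circle, each knockout array as a square and group means as short lines. Knockout squares lie to the right of all wild-type circles for 25 members and to the left for 5, with Actg2 and Rflna furthest apart.

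The actins were the group with the widest spread of changes. Of 4 tested, 2 were higher, 1 was lower and 1 did not pass, beside 14.8% higher and 16.5% lower of all genes. Actg2, the gamma-actin typical of visceral smooth muscle, gave 5.71, 5.79 and 6.35 on the wild-type arrays and 9.83, 9.73 and 9.96 on the knockout arrays. No knockout value came near the wild-type range. Its change of 3.89 ± 0.19 (SE) was a 14.8-fold rise (limma adjusted p = 4.79e-06), the largest among the members, and its call held in 17 of 17 processing alternatives. The wild-type values were dim, and the change was 2.96 with the alternative background correction, whose offset of 50, added before log2, shrinks dim probes more. Acta1, the alpha-actin of skeletal muscle, went the other way, with 7.31, 6.42 and 6.59 on the wild-type arrays and 4.74, 4.99 and 5.23 on the knockout arrays. Detection held for all 3 wild-type samples and for only 1 knockout sample, so that the knockout mean lay at background. Its change was -1.78 ± 0.24 (SE) (limma adjusted p = 0.00101), and -0.94 with the same alternative correction. Of 15 striated muscle markers with a probe, 10, among them Actc1, Ckm, Myh1 and Myod1, were detected on 0 arrays. The 2 tested, Ttn and Mb, did not pass. Ttn was detected on 3 wild-type and 0 knockout arrays. Its knockout values all lay below wild-type, with a change of -0.69 (limma adjusted p = 0.0832). Mb overlapped between the groups and changed by 0.06 (limma adjusted p = 0.874). The summed intensity of the 15 was 428 to 467 on the wild-type and 402 to 456 on the knockout arrays, ranges that overlap. With 10 of the 15 undetected, this sum is mostly background and cannot show whether these markers differ.

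Acta2, which makes up much of the contractile actin of arterial smooth muscle, was higher by all 4 of its kept probes, but by different amounts. The brightest probe read 14.76, 14.38 and 14.69 on the wild-type arrays and 15.20, 15.11 and 15.04 on the knockout arrays, a change of 0.50 ± 0.14 (SE) (limma adjusted p = 0.0277). This call held in 10 of 17 alternatives. The other probes changed by 0.84, 0.92 and 1.11, the last of them 2.16-fold. The brightest probe reached 86.1% of the highest raw intensity of an array. On each of the 4 kept probes all knockout values lay above all wild-type values. The remaining probes of the gene were detected on too few arrays to be tested, and on these the groups overlapped.

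Actb, the cytoplasmic beta-actin found in nearly all cells, did not pass by any of its 5 kept probes. The brightest gave 13.51, 13.44 and 13.90 on the wild-type arrays and 14.09, 13.93 and 14.14 on the knockout arrays, a change of 0.43 ± 0.15 (SE) (limma adjusted p = 0.0681), and 2 dim probes gave -0.65 and -0.14. The groups did not overlap on the brightest probe, and 5 of 17 alternatives called it higher. Actins are near-identical as proteins, and whether a probe of one actin also reads the RNA of another was not tested.

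Of the 12 genes of proteins that bind and regulate the thin filament, 10 were tested. Among these, 6 were higher, 0 were lower and 4 did not pass, beside 14.8% higher and 16.5% lower of all genes. Tropomyosins are coiled-coil proteins that lie along actin and set the access of myosin and of other actin-binding proteins. Tpm2, the beta-tropomyosin, gave 9.91, 10.13 and 10.22 on the wild-type arrays and 11.45, 11.25 and 11.23 on the knockout arrays, without overlap. It rose 2.33-fold, by 1.22 ± 0.14 (SE) (limma adjusted p = 3.62e-04). Tpm1 rose 1.34-fold by its brightest probe and 1.61-fold by a dimmer one, and Tpm4 rose 1.33-fold (limma adjusted p = 0.0425, 0.00445 and 0.0411). The brightest probe of Tpm1 kept its call in 8 of 17 alternatives and that of Tpm4 in 7 of 17. Tpm3 gave 0.37 ± 0.12 (SE) and did not pass (limma adjusted p = 0.0600).

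The probes of Tpm4 differed among themselves. The brightest gave 12.24, 12.48 and 12.50 on the wild-type arrays and 12.81, 12.77 and 12.87 on the knockout arrays, and the dimmest probe, with 8.22, 8.14 and 8.29 on the wild-type arrays and 8.86, 8.66 and 8.81 on the knockout arrays, gave a rise of 1.48-fold. The third, with 9.03, 8.87 and 8.95 on the wild-type arrays and 8.94, 9.01 and 9.01 on the knockout arrays, overlapped between the groups and changed by 0.04 ± 0.11 (SE) (limma adjusted p = 0.853).

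Lmod1, leiomodin, which nucleates actin filaments in smooth muscle, gave 6.84, 6.51 and 6.56 on the wild-type arrays and 7.81, 7.71 and 7.66 on the knockout arrays. All knockout values were higher, and the rise was 2.13-fold, or 1.09 ± 0.13 (SE) (limma adjusted p = 5.78e-04). Transgelins and calponins are related actin-binding proteins with a calponin homology domain. Tagln2, the widely expressed transgelin, read 8.65, 8.76 and 8.83 on the wild-type arrays and 9.65, 9.84 and 9.65 on the knockout arrays and rose 1.96-fold (limma adjusted p = 7.21e-04), without overlap. Tagln, the smooth muscle transgelin, read 6.90, 6.82 and 7.40 on the wild-type arrays and 7.44, 7.37 and 7.07 on the knockout arrays. Its groups overlapped and its change of 0.25 ± 0.19 (SE) did not pass (limma adjusted p = 0.358). The difference between the changes of both transgelins was not tested. Cnn2, the non-muscle calponin, rose 1.66-fold on the brighter and 1.66-fold on the dimmer of its probes (limma adjusted p = 0.0138 and 0.0114).

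Smtn, which codes for smoothelin of contractile smooth muscle, gave 8.61, 9.02 and 9.20 on the wild-type arrays and 9.09, 9.05 and 8.99 on the knockout arrays. The knockout values lay inside the wild-type range, and the change was 0.10 ± 0.17 (SE) (limma adjusted p = 0.702). Its other kept probe gave 0.15 ± 0.14 (SE). For Cald1, caldesmon, which links actin to myosin and exists as smooth muscle and non-muscle isoforms, the 5 kept probes differed among themselves. The brightest read 10.16, 10.12 and 9.54 on the wild-type arrays and 10.27, 10.34 and 9.93 on the knockout arrays and did not pass (limma adjusted p = 0.409). A dimmer probe read 6.41, 6.07 and 6.20 on the wild-type arrays and 7.91, 8.17 and 7.84 on the knockout arrays, a rise of 3.36-fold (limma adjusted p = 7.82e-05). The other 3 gave 0.61, -0.15 and -0.20 and did not pass. The mean of the 5 probes changed by 0.45 and was called higher (limma adjusted p = 0.0369). The annotation ties the probe that rose to a transcript record that no other Cald1 probe shares, and the isoforms that the probes read are not stated in the sources used here.

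**Figure D2:**
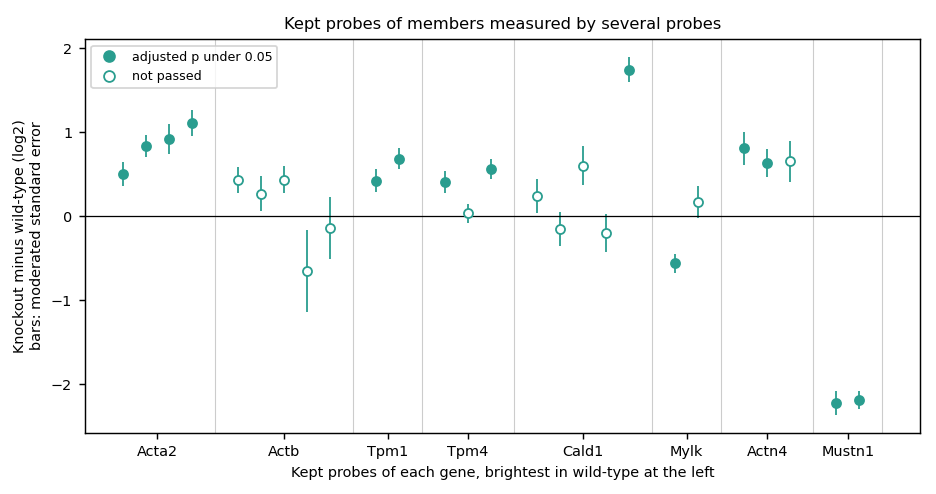
Knockout minus wild-type on the log2 scale with moderated standard errors, for each kept probe of 8 members, brightest in wild-type at the left. Filled points passed an adjusted p of 0.05; all 4 Acta2 and both Mustn1 probes are filled, whereas 1 of 5 Cald1 probes and 1 of 2 Mylk probes is.

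Myosin is a hexamer of heavy chains with essential and regulatory light chains. Of its 6 members here, 3 were higher, 1 was lower and 2 did not pass, beside 14.8% higher and 16.5% lower of all genes. Myl9, the regulatory light chain of smooth muscle, gave 9.75, 9.85 and 10.37 on the wild-type arrays and 10.84, 11.01 and 10.99 on the knockout arrays. The groups did not overlap, and the rise was 1.94-fold, or 0.95 ± 0.18 (SE) (limma adjusted p = 0.00470). Myl6, the essential light chain, rose 1.37-fold by its brightest probe and 1.41-fold by the other (limma adjusted p = 0.0301 and 0.0414). Mylk, the kinase that phosphorylates the regulatory light chain, moved in the opposite direction by its brightest probe, with 8.82, 8.71 and 8.85 on the wild-type arrays and 8.22, 8.22 and 8.26 on the knockout arrays. That probe fell by 0.56 ± 0.11 (SE), or 1.47-fold (limma adjusted p = 0.00715). A dimmer Mylk probe read 5.51, 5.75 and 6.02 on the wild-type arrays and 5.65, 6.20 and 5.94 on the knockout arrays and changed by 0.17 ± 0.19 (SE) without passing (limma adjusted p = 0.546). With the mean of both probes the change was -0.19 and was not called.

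Among the heavy chains, 1 of 3 passed. Myh9, a non-muscle myosin heavy chain, gave 11.81, 12.13 and 11.72 on the wild-type arrays and 12.57, 12.54 and 12.24 on the knockout arrays and rose 1.48-fold (limma adjusted p = 0.0301), a call kept in 11 of 17 alternatives. Its other kept probe read 6.30, 6.70 and 6.39 on the wild-type arrays and 6.89, 6.99 and 6.82 on the knockout arrays and rested just short of the threshold, with 0.43 ± 0.14 (SE) (limma adjusted p = 0.0515). Myh10, another non-muscle heavy chain, gave 0.31 ± 0.17 (SE) and did not pass (limma adjusted p = 0.225). Myh11 read 4.75, 4.97 and 5.44 on the wild-type arrays and 5.64, 5.25 and 6.48 on the knockout arrays, so that most of its values were at or near background. The groups overlapped, and the change of 0.74 ± 0.31 (SE) over all arrays did not pass (limma adjusted p = 0.114). It rested on single knockout arrays: without replicate 3, the highest, the change was 0.39 and did not pass, and without replicate 2 it was 1.01 and passed (limma adjusted p = 0.272 and 0.0425).

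Neither intermediate filament gene was higher. Vim, vimentin, the filament of mesenchymal cells, was 1.35-fold lower, going from 13.35 ± 0.0043 (SD, n = 3) to 12.92 ± 0.08 (SD, n = 3) (limma adjusted p = 0.0229), a call kept in 11 of 17 alternatives. With arrays scaled to equal medians instead of equal quantiles the change was -0.24 and did not pass (limma adjusted p = 0.231). Wild-type replicates 2 and 3 of Vim had the same value, 13.3518, once quantiles were equalised. Its small wild-type SD is thus partly a product of that step. Des, desmin, the muscle filament, was detected on all 6 arrays near background and gave -0.18 ± 0.17 (SE) (limma adjusted p = 0.483).

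Crosslinkers and dense body proteins held some of the larger rises. Of 9 tested, 6 were higher and 0 lower, beside 14.8% and 16.5% of all genes. Filamins are long, V-shaped dimers that join actin filaments into networks and bind many membrane proteins. Flna, the widely expressed filamin A, gave 9.09, 9.31 and 9.37 on the wild-type arrays and 10.35, 10.35 and 10.21 on the knockout arrays. The rise was 2.07-fold, or 1.05 ± 0.13 (SE) (limma adjusted p = 5.83e-04). Flnc, the filamin of muscle, gave 7.84, 8.12 and 7.93 on the wild-type arrays and 9.54, 9.39 and 9.21 on the knockout arrays and rose 2.67-fold (limma adjusted p = 1.89e-04). Neither filamin overlapped between the genotypes.

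Rflna, refilin A, a small protein that binds filamin and promotes actin bundles, read 5.34, 4.98 and 5.06 on the wild-type arrays and 8.91, 8.72 and 8.73 on the knockout arrays. It was detected on 1 wild-type and all 3 knockout arrays. With the wild-type mean at background, the fitted change of 3.66 ± 0.14 (SE) (limma adjusted p = 1.77e-06) depends on the offset added before log2, and it ranged from 2.39 to 4.07 over the alternatives. The call held in all 16 that could be run on it. The binding partner and both filamins were thus higher on all 3 knockout arrays.

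Alpha-actinins crosslink actin in dense bodies and adhesions. Actn4 gave 7.88, 8.36 and 8.59 on the wild-type arrays and 9.21, 9.12 and 8.92 on the knockout arrays by its brightest probe and rose 1.75-fold (limma adjusted p = 0.0149). A further Actn4 probe passed with 0.64, and the third read 6.25, 6.01 and 6.66 on the wild-type arrays and 6.66, 7.45 and 6.78 on the knockout arrays and did not, with 0.66 ± 0.24 (SE) (limma adjusted p = 0.0783). Actn1, its close relative, gave 0.39 ± 0.14 (SE) and did not pass (limma adjusted p = 0.0762), although its 3 knockout values all lay above the wild-type ones.

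PDLIM proteins tether kinases and other partners to actinin through a PDZ and LIM domains. Among the 4 members, 2 were higher, beside 14.8% of all genes, and no group-wide direction was seen. Pdlim5 gave 7.17, 6.20 and 7.42 on the wild-type arrays and 7.93, 7.95 and 7.71 on the knockout arrays. Wild-type replicate 2 was far below the other wild-type arrays, and the rise of 0.93 ± 0.29 (SE) passed (limma adjusted p = 0.0419), with its call kept in 11 of 17 alternatives. Without that array the change was 0.57. Its second probe read 5.23, 5.75 and 6.23 on the wild-type arrays and 6.41, 6.90 and 6.10 on the knockout arrays, overlapped and did not pass (limma adjusted p = 0.0879). Pdlim7 rose 1.45-fold (limma adjusted p = 0.0130). Pdlim1 gave -0.35 ± 0.12 (SE) (limma adjusted p = 0.0526) with all knockout values below wild-type, and Pdlim3 gave 0.05 ± 0.16 (SE) (limma adjusted p = 0.857). Synpo2, an actin-bundling protein of muscle, was measured by 2 probes, and only knockout replicate 3 passed detection on one of them.

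Adhesion plaque proteins join actin to integrins. Of 4 tested, 3 were higher and 0 lower, beside 14.8% and 16.5% of all genes. Zyx, zyxin, a LIM protein that moves to strained actin, changed from 14.53 ± 0.04 (SD, n = 3) to 15.24 ± 0.05 (SD, n = 3), a rise of 1.63-fold (limma adjusted p = 0.00216) that held in 17 of 17 alternatives. The Zyx probe reached 91.2% of the highest raw intensity of an array. Its wild-type replicates 2 and 3 had the same value, 14.5091, once quantiles were equalised, so the wild-type SD is partly a product of that step. Pxn, paxillin, a docking protein of focal adhesions, rose 1.43-fold (limma adjusted p = 0.0361), a call kept in 8 of 17 alternatives. Tln1, talin, which activates integrins, was detected on 0 wild-type and 3 knockout arrays and was at least 1.21-fold higher (limma adjusted p = 0.0171). Tln1 is the member that the filter kept through the knockout arrays alone, so its call was partly set by the filter. That call was kept in 11 of 16 alternatives. Vcl, vinculin, which binds talin and actin, gave 0.33 ± 0.13 (SE) and did not pass (limma adjusted p = 0.0946).

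**Figure D3:**
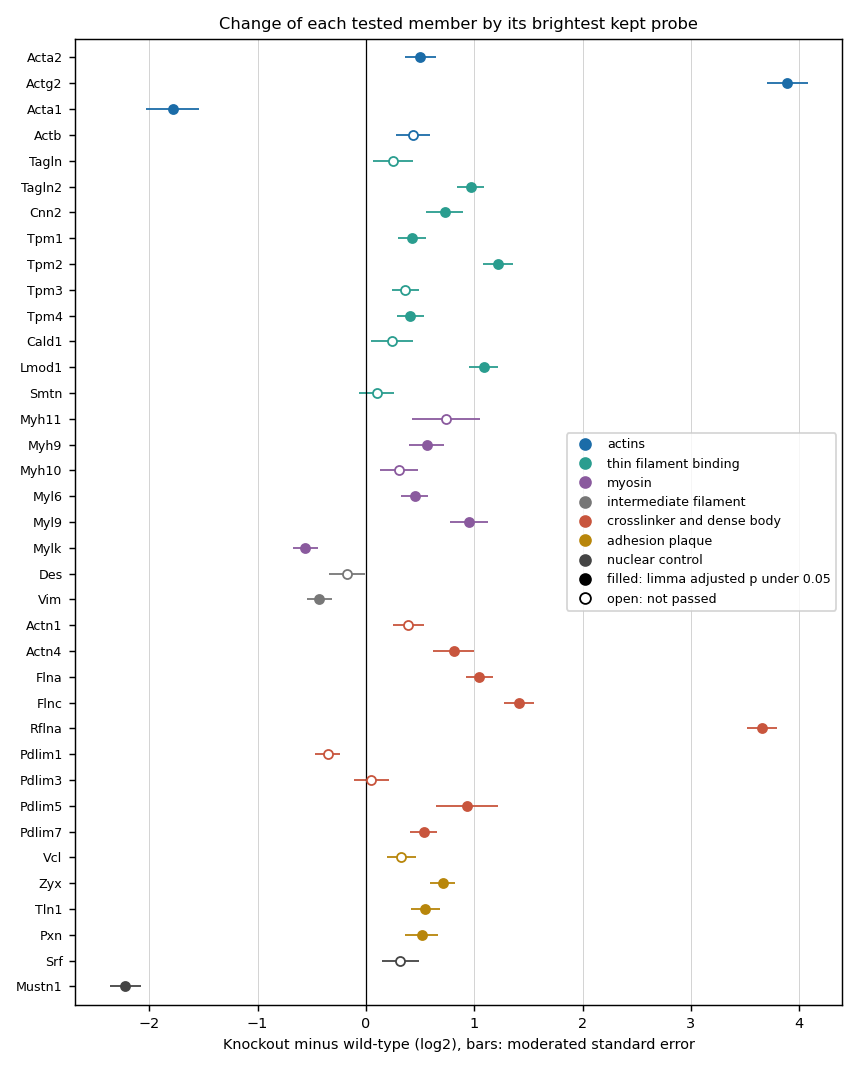
Knockout minus wild-type on the log2 scale with moderated standard errors, for the brightest kept probe of each of the 37 tested members, coloured by role. Filled points passed an adjusted p of 0.05: 20 lie to the right of 0 and 4, Acta1, Mylk, Vim and Mustn1, to the left.

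None of the 4 calcium-handling members could be tested. Casq2 (the calcium store protein calsequestrin), Pln (phospholamban, which inhibits the calcium pump) and Pcp4 (a calmodulin-binding protein) had 1 probe each, detected on 0 arrays. Kcnmb1, the beta subunit of the calcium-activated potassium channel of smooth muscle, passed detection on knockout replicate 1 alone. No statement on these genes is possible at this sensitivity.

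Among the nuclear regulators, Srf and Mustn1 were tested. Srf, the transcription factor that binds the CArG box, gave 0.32 ± 0.17 (SE) and did not pass (limma adjusted p = 0.206). The single probe of its coactivator Mkl1 was detected on 1 wild-type array and was not tested. Mustn1, a small nuclear protein of muscle and skeletal tissue, gave 9.48, 9.74 and 9.84 on the wild-type arrays and 7.52, 7.57 and 7.33 on the knockout arrays by its brightest probe. Its second probe gave 9.35, 9.36 and 9.39 on the wild-type arrays and 7.11, 7.22 and 7.21 on the knockout arrays. All 3 knockout values of both probes were far below the wild-type values. The falls were 4.66-fold and 4.55-fold (limma adjusted p = 2.01e-05 and 6.37e-06), and the call held in 17 of 17 alternatives.

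Because SRF acts through the CArG box, the RefSeq promoter windows of the members (GRCm38.p6, 250 bases before to 50 after an annotated start) were searched for it on both strands. Windows were found for 41 of the 49 genes, 47 windows in all, and the other 8 genes were not searched. An exact CArG box stood in 7 of the 47, or 14.9%, against 1.63% of all 32851 windows. The members include Srf and many genes already known to be driven by it. The higher share is thus a trait of how they were chosen and not a result of these arrays. The genes were Myl9, Acta1, Cnn2, Myl6, Actg1, Vcl and Srf. Of these, Myl9, Cnn2 and Myl6 were higher in knockout cells, Acta1 was lower, Vcl and Srf did not pass, and Actg1 was not measured. All knockout values lay above all wild-type values for Myl9, Cnn2, Myl6, Vcl and Srf. For Acta1, whose knockout mean lay at background, they lay below. Over all genes tested, 14.8% were called higher and 16.5% lower, and whether the box bears on the direction was not tested. TATAAA was found in 8 of 47 windows (17.0%, against 13.6% of all) and CATTCC, the core recognised by TEAD factors, in 16 of 47 (34.0%, against 14.7%). A match is a description of the letters and not a binding site. TATAAA can lie inside a CArG box, but no match of one motif overlapped a match of another in these windows.

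The 250 bases before the start are shown, 5′ to 3′ on the gene's strand, for 4 of the CArG-bearing members that changed in opposite directions or that code for the factor itself. Capitals mark the exact CArG box.
Myl9, chr2:156775214-156775463, plus strand: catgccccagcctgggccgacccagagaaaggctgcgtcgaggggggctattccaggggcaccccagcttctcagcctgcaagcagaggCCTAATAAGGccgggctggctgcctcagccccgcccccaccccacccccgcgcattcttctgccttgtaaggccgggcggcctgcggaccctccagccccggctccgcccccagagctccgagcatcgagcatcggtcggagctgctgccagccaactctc
Cnn2, chr10:79988350-79988599, plus strand: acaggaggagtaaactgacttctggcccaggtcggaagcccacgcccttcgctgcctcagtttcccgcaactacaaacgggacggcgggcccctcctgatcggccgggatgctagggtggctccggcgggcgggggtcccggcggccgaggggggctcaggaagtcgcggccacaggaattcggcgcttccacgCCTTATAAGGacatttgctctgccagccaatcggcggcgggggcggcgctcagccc
Acta1, chr8:123894776-123895025, minus strand: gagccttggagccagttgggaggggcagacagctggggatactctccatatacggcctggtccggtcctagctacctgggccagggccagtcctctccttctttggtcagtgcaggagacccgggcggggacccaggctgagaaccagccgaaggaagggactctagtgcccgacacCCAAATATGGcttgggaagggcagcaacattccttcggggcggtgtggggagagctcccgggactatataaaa
Srf, chr17:46556163-46556412, minus strand: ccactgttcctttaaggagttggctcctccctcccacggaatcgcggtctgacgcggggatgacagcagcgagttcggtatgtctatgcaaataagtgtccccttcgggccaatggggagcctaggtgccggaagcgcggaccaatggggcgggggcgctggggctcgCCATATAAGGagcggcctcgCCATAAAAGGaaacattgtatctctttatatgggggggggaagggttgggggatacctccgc
The box of Myl9 begins 161 bases before the start, that of Cnn2 56 and that of Acta1 73 bases before it. Srf has 2 boxes, beginning 82 and 62 bases before its start. In the values above, Myl9 and Cnn2 rose 1.94-fold and 1.66-fold, and Acta1 changed by -1.78 on the log2 scale.

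Other genes of the pathway were taken from a list that holds no member. Of 17 genes of myosin phosphatase, calmodulin and relaxation by cyclic GMP, 11 were tested. Of these, 2 were higher and 3 lower (18.2% and 27.3%), beside 14.8% and 16.5% of all genes. Their median change was -0.05, against -0.01 for all genes. Whether the list differs from all genes was not tested. Prkg1, the cGMP-dependent kinase that relaxes smooth muscle, was 2.27-fold lower, and Gucy1a1, a subunit of the guanylate cyclase that makes cGMP, was 3.02-fold higher (limma adjusted p = 1.55e-04 and 0.00137). The regulatory light chain gene Myl12b was 1.63-fold lower and the calmodulin gene Calm2 1.63-fold higher (limma adjusted p = 0.00383 and 0.0188).

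The members whose call held in all alternatives run on them were 10 higher (Actg2, Actn4, Flna, Flnc, Lmod1, Myl9, Rflna, Tagln2, Tpm2 and Zyx) and 2 lower (Acta1 and Mustn1). Among the other 10 higher members, each lost its call in at least 1 alternative. The direction of every called member was kept in all alternatives run. Tpm4 lost its call without any 1 of the 6 arrays, Tpm1 without any but wild-type replicate 3 and Myl6 without any but wild-type replicate 3. The call of Acta2 was lost without wild-type replicate 2 or any knockout array, that of Pdlim5 without wild-type replicate 1 or any knockout array, and that of Pxn without wild-type replicate 1 or 3 or any knockout array. Myh9 lost it without wild-type replicate 1 or 3 or knockout replicate 1 or 2, and Vim without replicate 2 or 3 of either genotype. Cnn2 lost it without wild-type replicate 3 or knockout replicate 2, and Tln1 without knockout replicate 3. The limma adjusted p-values in these fits of 5 arrays lay between 0.0503 and 0.125.

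**Figure D4:**
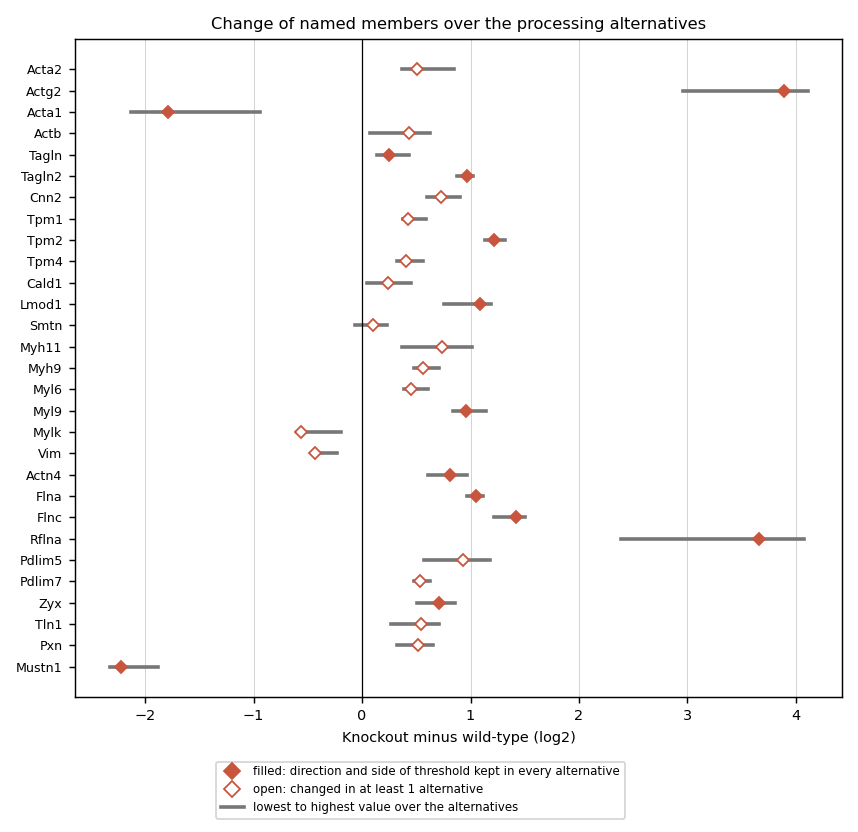
Knockout minus wild-type on the log2 scale for 29 named members: the diamond is the reported value and the bar spans the lowest to highest value over the processing alternatives. Filled diamonds kept direction and side of the threshold in all of them; the bar of Smtn crosses 0.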

How the data were processed

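RNA of 3 wild-type and 3 FHL2-knockout samples was labelled with biotin and hybridised to 1-colour Illumina beadchips, per the labels. The deposited intensity table holds 1 raw bead intensity per probe and array, neither background-subtracted nor scaled, as its values show. The detection p-value beside each intensity was deposited by the authors and takes 936 equal steps. The deposited log2 matrix shares its quantiles between arrays and correlated at 0.999 with the values used here. Its medians were 4.94 to 4.95 and its offset is unknown. Tools listed without roles in the submitters' processing notes are limma 3.10.2, R 2.14.0 and GenomeStudio 2011.1.

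In R 4.3.3 with limma 3.58.1, neqc estimated background from the detection p-values, added an offset of 16, equalised quantiles and took log2, which shrinks changes of dim probes and assumes like intensity distributions. Of 45281 probes, 15527 were detected on at least 3 arrays and fitted with lmFit and eBayes, adjusted by Benjamini-Hochberg. Errors are moderated SE for changes and SD for means. A gene stands by its brightest kept probe. A probe undetected on all arrays of a genotype gives a bound ("at least"), against the lowest detected signal. Summed marker intensities are linear. Symbols came from the platform annotation, updated through RefSeq GRCm38.p6.

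Members and lists were chosen with earlier results of these data known. The result of another pathway list is not reported here. Arrays are printed for called members changed by at least 0.8, for 5 identity genes and where kept probes disagree, and each list names its 4 smallest p. The fit, tested on simulated data of 15527 probes, recovered 12%, 62%, 94% and 100% of changes of 0.5, 1, 2 and 4 (log2). Few simulated probes were changed, with 139 calls against 4596 in the data. The adjustment was thus stricter there, and these percentages do not carry over to the data. The sources used here do not state slides or scan dates, and no batch was tested. Alternatives covered background, scaling, the deposited matrix, filters, variance model, array weights, replicate block, left-out arrays, a fold threshold and probe averaging.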

Additional observations from a re-analysis of the deposited data

How the results depend on the processing

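Over 17 alternatives for 29 members, 489 values were computed. Of these, 409 kept direction and side of the threshold, 71 lost a call and 8 gained one. The 1 reversal was Smtn without wild-type replicate 1, at -0.069 (range over left-out arrays -0.069 to 0.227), against 0.10 reported, and none of these passed. Of the members called higher, numbering 20, there were 13 without the filter on dim probes and 12 with a threshold of 1.5-fold. Without the filter, 45 members and 45281 probes were tested and the adjustment is wider. The share of all genes called higher was 5.77% without the filter and 10.6% with the threshold, against 14.8% reported. The 1.5-fold threshold left 2 of the 4 lower members and 12.3% of all genes lower, against 16.5% reported. Leaving out 1 array gave 13 to 17 higher and 3 to 4 lower members and 3474 to 4307 called probes, against 4596, with fewer samples in the fit. In these fits 10.8% to 14.1% of all genes were higher and 12.8% to 15.2% lower. The remaining alternatives gave 16 to 23 higher and 3 to 5 lower members, beside 14.0% to 18.2% and 13.5% to 19.5% of all genes. Samples with the same replicate number deviated together at correlations of 0.12, 0.07 and 0.06, so that the numbers were not taken to pair them. With the number as a replicate block, 17 members were higher, 4 lower and 4405 probes called, and Myh11 gained a call (limma adjusted p = 0.0257). The offset limits dim probes such as Actg2, Rflna, Acta1, Tln1 and Myh11, and undetected members cannot be judged.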
